A study of Homo sapiens with 9 samples.

Results

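The transcriptional response to PRL-295 was measured by RNA sequencing in HaCaT cells, an immortalised line of human epidermal keratinocytes. The comparison set 3 libraries of cells given 10 µM PRL-295 for 14 h against 3 libraries of cells given 1% DMSO, the vehicle, for the same time, so it used 6 of the 9 libraries of the study. All cells grew in DMEM and carried no labelled genetic change. The remaining 3 libraries, from cells given 250 nM of CDDO-Me, an electrophilic triterpenoid activator of NRF2, entered only a joint fit of all libraries and the direct comparison of the compounds at the end. Only the code name PRL-295 is given for the compound, and the study's title speaks of activators of NRF2 that are not electrophiles. DMSO is labelled in the control group alone, and the labels do not say if the compound cultures held it too. Nor do they say that libraries of a group are separate cultures, so each p-value measures only how far these samples spread, which may be technical.

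NRF2 is the transcription factor of the cellular antioxidant response. It is held in the cytoplasm and sent for degradation by KEAP1, and when that hold is released it enters the nucleus, pairs with a small MAF protein and binds the antioxidant response element (ARE) near genes for quinone reduction, glutathione and thioredoxin metabolism, NADPH supply and heme breakdown. The aryl hydrocarbon receptor (AHR) is a second sensor of foreign chemicals in skin, which binds the xenobiotic response element (XRE) and is best known for inducing CYP1A1. Keratinocytes of the basal epidermal layer express KRT5 and KRT14, while cells that leave it for differentiation switch on KRT1, KRT10 and the proteins of the cornified envelope.

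Between 24239976 and 32942156 reads were counted to genes per library, so that 3 reads, the floor used here, correspond to 0.0911 to 0.124 counts-per-million (CPM). Genes with at least 1 read numbered 18958, 17821 and 22507 in DMSO 1, 2 and 3 and 21427, 21134 and 21233 in PRL-295 1, 2 and 3. DMSO 2 had the fewest of these although it had the most reads. In CDDO-Me 1, 2 and 3, which enter the joint fit, they numbered 14543, 23271 and 21796. The part of these differences in the calls was not tested. The line's identity was checked against 12 keratinocyte markers, all of which were expressed, with a summed level of 18175 to 20031 CPM in the DMSO libraries and 15075 to 16402 CPM in the PRL-295 libraries. Markers of other cell types were near 0: 9 fibroblast markers, of which COL3A1, DCN and LUM were at 0, summed to 7.5 to 11.7 CPM, 8 melanocyte markers to 4.3 to 9.8 CPM, 13 immune markers to 1.2 to 2.7 CPM and 8 endothelial markers to 0.7 to 3.0 CPM. Of these 38 markers 6 passed the filter on low counts, and none was called. In such bulk samples, fewer cells of a type and less RNA per cell cannot be told apart. Levels below are CPM scaled by the trimmed mean of M values (TMM) over the 6 libraries, given in the order of libraries 1, 2 and 3 of a group. Differences are log2 fold changes, PRL-295 minus DMSO, with the standard error (SE) and the Benjamini-Hochberg adjusted p of edgeR's quasi-likelihood test over all tested genes. A gene was called where the adjusted p was under 0.05.

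Of 15386 genes tested, 650 were called, which is 4.22%. There were 494 higher with PRL-295 (3.21%) and 156 lower (1.01%), and 159 and 52 of them changed 2-fold or more. In all 650 the 3 PRL-295 libraries lay outside the range of the 3 DMSO libraries, which was so for 26.2% of all tested genes. The median log2 fold change over all tested genes was 0.001. The number of calls moved with single libraries. With DMSO 1 left out it was 117 higher and 28 lower, with DMSO 2 it was 91 and 29, and with DMSO 3 554 and 376. With PRL-295 1 left out it was 234 and 57, with PRL-295 2 it was 1192 and 410, and with PRL-295 3 221 and 31. Of the called genes, 80 higher and 16 lower ones were called in each of these 6 fits, and in a joint fit that adds the 3 CDDO-Me libraries, 75 higher and 36 lower ones remained. In each of 18 alternative analyses 29 higher and 2 lower ones were called. Scaling by library totals alone gave 434 higher and 248 lower.

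**Figure D1:**
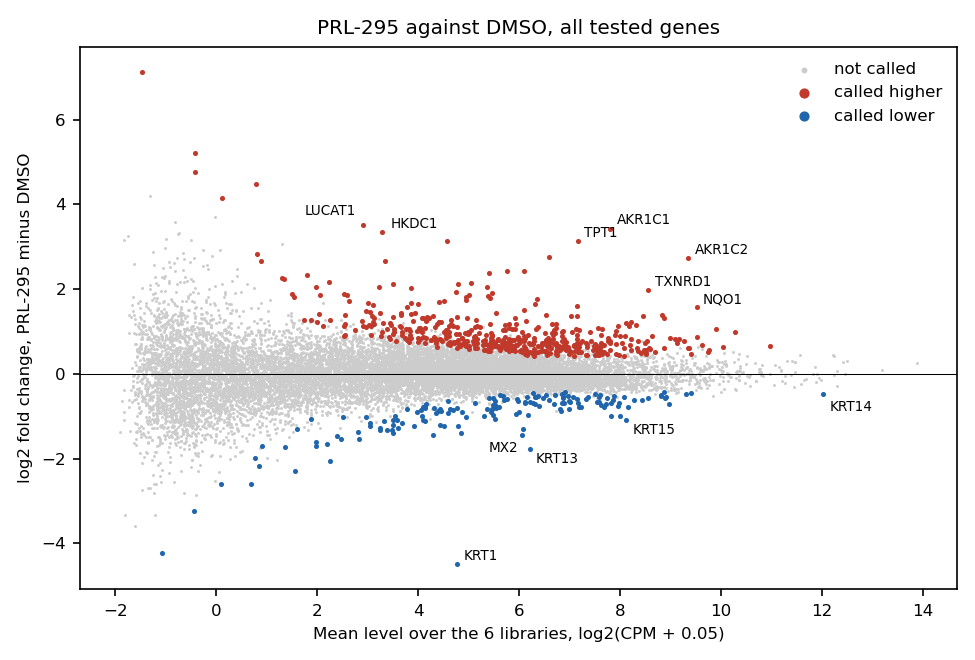
Log2 fold change (PRL-295 minus DMSO) against the mean level over the 6 libraries, as log2(CPM + 0.05), for the 15386 tested genes, with genes called higher in red and called lower in blue. The rises of AKR1C1 (3.43) and AKR1C2 (2.73) lie near the top of the plot and KRT1 (-4.50) at the bottom.

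Libraries differed in how their counts followed the GC content of the genes, and 2 of the 3 PRL-295 libraries stood apart from the others in this. Across genes, the correlation of a library's deviation from the 6-library mean with GC content was 0.186, 0.137 and 0.164 in the DMSO libraries and -0.496, 0.187 and -0.276 in the PRL-295 libraries, of which library 2 lay close to the DMSO group. With gene length the correlation was 0.0702, 0.064 and -0.13 in the DMSO libraries and 0.0686, -0.131 and 0.0107 in the PRL-295 libraries. In gene length DMSO 3 and PRL-295 2 thus stood apart from the others. Genes of 30 to 35% GC had a median log2 fold change of 0.26, and genes of 65 to 70% GC one of -0.28. The median GC content was 42.0% among genes called higher, 58.1% among genes called lower and 49.2% among all tested genes. After a correction of every library for its trend with GC content and gene length, 231 genes were higher and 120 lower, and 195 and 80 of the genes called without the correction were among them. Corrected values are given below beside the groups they bear on.

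**Figure D2:**
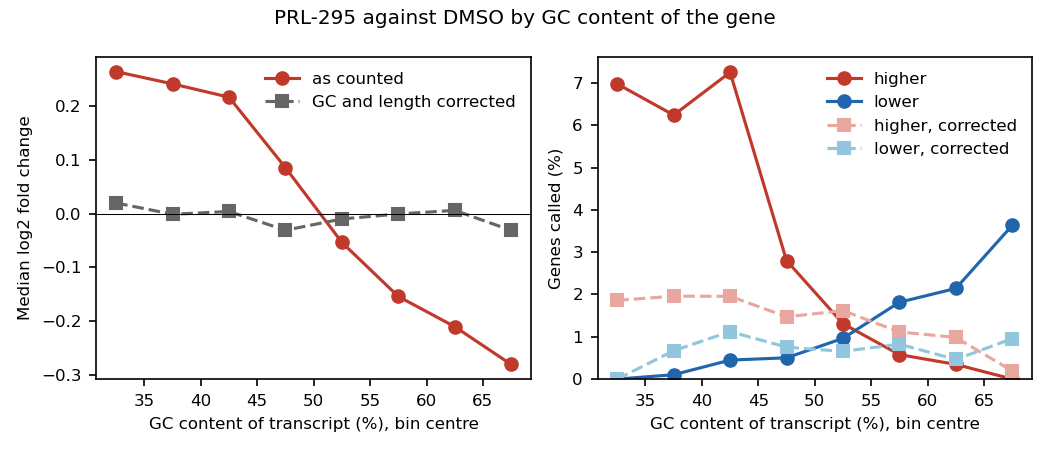
Left, median log2 fold change (PRL-295 minus DMSO) of tested genes in bins of transcript GC content, as counted and after the GC and length correction; right, the percentage of genes called in each bin. As counted, the median runs from 0.26 to -0.28 across the bins, and after correction every bin's median lies close to 0.

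AKR1C1, an aldo-keto reductase that reduces carbonyls and steroids (ENSG00000187134; hg38 chromosome 10, 4963253 to 5107522), had the smallest adjusted p of the genes named here. It stood at 35.9, 34.4 and 43.8 CPM with DMSO and at 384, 441 and 404 CPM with PRL-295, with no overlap and little spread in either group, a 10.8-fold rise (log2 fold change 3.43, SE 0.13, adjusted p = 5.58e-07). TXNRD1, the cytosolic thioredoxin reductase (ENSG00000198431; chromosome 12, 104215779 to 104350305), rose 3.96-fold, from 138, 159 and 160.4 to 572, 629 and 609 CPM (SE of the log2 fold change 0.11, adjusted p = 1.26e-05). GCLC, the catalytic subunit of the enzyme that starts glutathione synthesis, rose from 69.4, 67.6 and 74.6 to 225, 204 and 211 CPM (log2 fold change 1.60, SE 0.10, adjusted p = 4.29e-05). NQO1, the quinone reductase commonly read out for NRF2 (ENSG00000181019; chromosome 16, 69706996 to 69726951), rose from 339, 346 and 419 to 954, 1315 and 1014 CPM (log2 fold change 1.57, SE 0.15, adjusted p = 0.000409). These 4 calls held with any of the 6 libraries left out and with the GC and length correction.

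The stretches upstream of the start are shown for the NRF2 targets called higher that hold a match to the ARE core and have the largest rises, to let the promoter be seen beside its gene's change. RefSeq windows (GRCh38.p14) reach from 250 bases before the start of a gene to 50 after it, and were searched on both strands for the ARE core TGACNNNGC. The 250 bases before the start follow, 5′ to 3′ on the gene's strand, with the match in capitals.
TXNRD1, chr12:104215529-104215778, plus strand: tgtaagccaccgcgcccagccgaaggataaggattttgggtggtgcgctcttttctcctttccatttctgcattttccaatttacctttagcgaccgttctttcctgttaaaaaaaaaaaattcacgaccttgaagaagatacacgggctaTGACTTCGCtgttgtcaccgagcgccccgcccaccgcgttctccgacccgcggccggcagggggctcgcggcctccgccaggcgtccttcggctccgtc
PGD, chr1:10398814-10399063, plus strand: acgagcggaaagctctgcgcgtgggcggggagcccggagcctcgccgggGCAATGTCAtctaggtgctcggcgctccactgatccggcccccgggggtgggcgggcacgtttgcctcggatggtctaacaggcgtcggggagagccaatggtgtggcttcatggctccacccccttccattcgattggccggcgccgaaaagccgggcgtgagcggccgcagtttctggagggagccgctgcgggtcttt
ME1, chr6:83431052-83431301, minus strand: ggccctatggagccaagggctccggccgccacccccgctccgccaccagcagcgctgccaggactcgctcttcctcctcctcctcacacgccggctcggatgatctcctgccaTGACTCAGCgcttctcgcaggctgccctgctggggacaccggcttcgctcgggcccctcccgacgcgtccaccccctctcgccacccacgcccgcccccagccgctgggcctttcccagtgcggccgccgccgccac
The match opens 99 bases before the start in TXNRD1, 201 before it in PGD, where it reads on the opposite strand, and 137 before it in ME1. The windows of TXNRD1 and ME1 hold a second match that is not wholly upstream and is not shown. Of the 22 genes of the NRF2 lists that were called higher and have a window, 6 held a match (27.3%), against 7 of 44 list members not called (15.9%). It was found in 82 of 384 windows of all genes called higher (21.4%), in 17.3% of those of genes called lower, in 15.1% of those of tested genes not called and in 13.6% of all 27305 windows. The windows of NQO1, GCLC and the AKR1C genes held none. Sequence outside the windows was not searched, so this does not say that these genes lack the element.

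Counts of list members here and below stand beside 3.21% of all tested genes called higher and 1.01% called lower. In the list of quinone and carbonyl reduction, 10 of 19 tested genes rose and none fell, with a median log2 fold change of 0.89. AKR1C2 rose from 173, 126 and 216 to 1002, 1357 and 1051 CPM (log2 fold change 2.73, adjusted p = 7.59e-05) and AKR1C3 from 23.5, 15.3 and 35.7 to 159.8, 185 and 156 CPM (2.75, adjusted p = 0.000409). AKR1C1, AKR1C2 and AKR1C3 are closely related neighbours whose gene models overlap, so how their reads were divided is uncertain. AKR1B10, a reductase of retinal and lipid aldehydes, rose from 9.35, 11.3 and 10.6 to 50.5, 41.1 and 43.8 CPM (2.11, adjusted p = 0.000136). UGDH, which makes the sugar donor for glucuronidation, rose from 23.8, 25.8 and 25.9 to 75.4, 56.7 and 71.1 CPM (1.43, adjusted p = 0.000695), and PTGR1, a reductase of reactive alkenals, from 44.6, 48.5 and 61.1 to 129, 136 and 137 CPM (1.38, adjusted p = 0.000621). The aldehyde dehydrogenase gene ALDH3A2 (0.77) was also called in every fit with a library left out. The microsomal epoxide hydrolase EPHX1 (0.93, adjusted p = 0.00724) was not called without DMSO 2 (0.0525). CBR1, a carbonyl reductase, had 0.63 and an adjusted p of 0.0587 (0.0326 with the GC and length correction), and its relatives CBR3 (-0.15) and CBR4 (0.13) did not pass.

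In the glutathione list 5 of 18 rose and none fell, with a median of 0.38. Besides GCLC they were its modifier subunit GCLM, from 71, 73.8 and 68.8 to 157, 116 and 142 CPM (0.96, adjusted p = 0.00344), glutathione reductase GSR, from 154, 163 and 153 to 307, 402 and 320.3 CPM (1.13, adjusted p = 0.000943), the peroxidase GPX2, from 166, 131 and 182 to 295, 363 and 311 CPM (1.02, adjusted p = 0.00373), and the cystine importer SLC7A11. SLC7A11 stood at 20.2, 12.8 and 15.6 CPM with DMSO and spread widely with PRL-295, at 103, 33 and 63.4 CPM (log2 fold change 2.04, SE 0.34, adjusted p = 0.00977). Its call ended without DMSO 1 (0.0651), DMSO 2 (0.114), or without DMSO 3 (0.0513). The abundant glutathione transferase GSTP1 (0.13, 95% interval -0.15 to 0.41) and the peroxidases GPX1 (-0.02) and GPX4 (0.07) did not pass.

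The thioredoxin and peroxide list had 4 of 16 higher, none lower and a median of 0.09. Besides TXNRD1, OSGIN1, an oxidative stress induced growth inhibitor, rose from 17.2, 22.8 and 24.5 to 101, 133 and 114 CPM (2.43, SE 0.16, adjusted p = 4.8e-05). Thioredoxin itself, TXN, rose from 473, 597 and 807 to 1301, 1353 and 1229 CPM (1.05, adjusted p = 0.00807; not without DMSO 2 (0.0838)). PRDX1, a peroxiredoxin, was called (1.15, adjusted p = 0.0217) but not without DMSO 1 (0.107), DMSO 2 (0.144), or without PRL-295 3 (0.0509). The sulfiredoxin SRXN1 overlapped between the groups, at 7.22, 4.54 and 3.5 CPM with DMSO and 7.18, 11.6 and 14.8 CPM with PRL-295, and did not pass (adjusted p = 0.0796). The list count was 2 without DMSO 2, and 2 in the joint fit with the CDDO-Me libraries.

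Of 14 tested genes of heme and iron 4 rose, none fell and the median was 0.37. HMOX1, which opens the heme ring, rose from 9.15, 10.1 and 13.9 to 38.2, 49.6 and 39.2 CPM (1.93, SE 0.20, adjusted p = 0.000823). FECH, which inserts iron to form heme, rose from 37.3, 34.8 and 35 to 68.5, 84 and 72.9 CPM (1.07, adjusted p = 0.00171). The ferritin light chain gene FTL rose from 872, 808 and 808 to 1464, 1935 and 1558 CPM (0.99, adjusted p = 0.00274), where pseudogenes make the assignment of reads uncertain. The transferrin receptor gene TFRC (0.60, adjusted p = 0.0181) was not called without DMSO 1 (0.0797) or DMSO 2 (0.0957), nor with the GC and length correction (0.203). The ferritin heavy chain gene FTH1 overlapped between the groups (0.48, adjusted p = 0.142).

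Of 10 genes of NADPH supply and the pentose phosphate pathway 4 rose, with a median of 0.40. PGD rose from 250.5, 284 and 268 to 614, 739 and 656 CPM (1.32, adjusted p = 0.000256) and malic enzyme ME1 from 28.9, 33.6 and 41.7 to 91.1, 89.9 and 76.6 CPM (1.31, adjusted p = 0.00171). Transaldolase TALDO1 rose by 0.82 (adjusted p = 0.00807; not called without DMSO 1 (0.0501) or DMSO 2 (0.0574)). The non-oxidative enzymes TKT (0.18), RPIA (0.27) and RPE (-0.28) did not pass, but RPE was called lower with the correction for GC and length (adjusted p = 0.04).

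Of 6 drug efflux transporters ABCC3 (0.66, adjusted p = 0.00599) and ABCC2 (0.89, adjusted p = 0.0475) rose, with a median of 0.50 over the list. With DMSO 1, 2 and 3 and then PRL-295 1, 2 and 3 left out in turn, 1, 0, 1, 1, 2 and 1 of the 6 rose. The ABCC3 call ended without DMSO 2 (0.0551), and the ABCC2 call without DMSO 1 (0.161), DMSO 2 (0.14), DMSO 3 (0.0701), PRL-295 1 (0.152), or without PRL-295 3 (0.14) or with the GC and length correction (0.102). In the list of NRF2 regulators and partners, 3 of 15 tested genes rose and the median was 0.29. One was TRIM16L, from 170.0, 179 and 187 to 369, 489 and 386 CPM (1.21, adjusted p = 0.000796), whose part in regulating NRF2 was not tested. The others were the small MAF partner MAFG (0.81, adjusted p = 0.00724; not without DMSO 2 (0.0561)), and SQSTM1, an autophagy receptor that binds KEAP1 (0.63, adjusted p = 0.0161; not without DMSO 1 (0.0569) or DMSO 2 (0.0772)). The regulator count was 1 without DMSO 2, 5 without PRL-295 2 and 5 with the correction.

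The mRNA of NRF2 itself did not pass. NFE2L2 stood at 39.8, 55.9 and 54.6 CPM with DMSO and at 72.5, 29.8 and 68.1 CPM with PRL-295, where library 2 lay below every DMSO library and the other two above (0.18, 95% interval -0.43 to 0.79, adjusted p = 0.781). KEAP1 had 0.29 (adjusted p = 0.194, and 0.0224 with the GC and length correction). BACH1, a repressor at the same elements, had 0.74 (SE 0.30, adjusted p = 0.205).

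**Figure D3:**
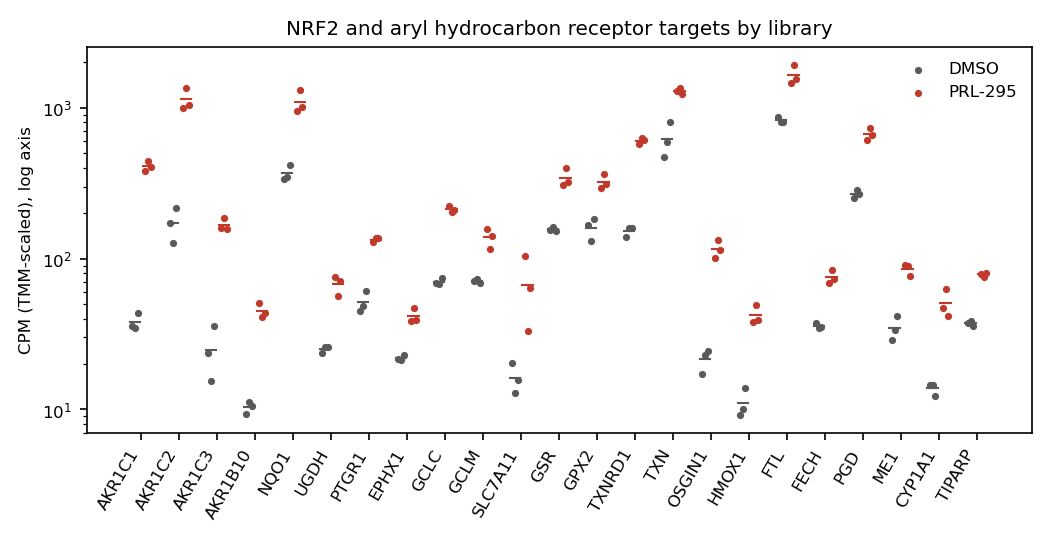
CPM (TMM-scaled, log axis) of 23 NRF2 and AHR targets in each of the 3 DMSO libraries (grey) and 3 PRL-295 libraries (red), with group means as lines; levels are not per length and are to be read within a gene only. Only genes called higher are drawn, so the 3 PRL-295 points lie above the 3 DMSO points in each, as groups do not overlap in any called gene. Groups did not overlap in 26.2% of all tested genes. SLC7A11 has the widest spread.

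Of 9 tested genes of the AHR pathway 2 rose, none fell and the median was 0.12. CYP1A1, a monooxygenase of polycyclic hydrocarbons (ENSG00000140465; chromosome 15, 74719542 to 74725610), rose from 14.6, 14.6 and 12.3 to 46.7, 63.4 and 41.3 CPM, which is 3.65-fold (log2 fold change 1.87, SE 0.19, adjusted p = 0.000695). TIPARP, an ADP-ribosyltransferase that represses the receptor, rose from 37.7, 38.9 and 36 to 79.1, 76 and 80.5 CPM (1.07, SE 0.11, adjusted p = 0.000943). Both calls held with any library left out. Other members did not pass. CYP1B1, at 14.4, 10.8 and 13.2 CPM with DMSO and 27.7, 12.4 and 22.1 CPM with PRL-295, overlapped between the groups (adjusted p = 0.181). AHRR, the receptor's repressor, had -0.27, and AHR itself -0.38 (adjusted p = 0.535). The stretch upstream of CYP1A1 is shown because this gene separated the compounds. It holds 1 match to the XRE core GCGTG, in capitals, which opens 57 bases before the start.
CYP1A1, chr15:74725529-74725778, minus strand: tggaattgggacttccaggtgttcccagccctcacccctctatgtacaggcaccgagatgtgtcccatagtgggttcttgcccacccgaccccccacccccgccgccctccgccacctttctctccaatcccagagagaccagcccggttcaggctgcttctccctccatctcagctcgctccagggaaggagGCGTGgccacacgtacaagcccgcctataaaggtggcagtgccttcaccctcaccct
This short motif was found in 52.3% of the windows of genes called higher, 39.8% of those of genes called lower, 50.4% of those of tested genes not called and 36.3% of all windows.

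Several of the largest rises among called genes (mean level 1 CPM or more) lay outside these lists. LUCAT1, a long noncoding RNA first described in smoke-exposed airway cells, rose from 1.32, 1.6 and 0.687 to 14, 13.5 and 13.7 CPM (3.51, SE 0.30, adjusted p = 0.000298). HKDC1, a hexokinase-like protein, rose from 1.81, 1.09 and 2.31 to 16.3, 18.8 and 18.2 CPM (3.35, adjusted p = 0.000245). RP11-227H15.4 lies across HKDC1 on the opposite strand and rose as well (4.48, adjusted p = 0.0115; not without PRL-295 3 (0.0597)), and as it is not given if strand was used in counting, reads of the pair cannot be told apart. UQCRB, a subunit of mitochondrial complex III, stood at 7.46, 3.03 and 4.06 CPM with DMSO and 47.3, 57.2 and 22.6 CPM with PRL-295 (3.14, adjusted p = 0.00253), and the cyclin gene CCNH at 3.77, 2.33 and 2.25 and 24.9, 14 and 13.5 CPM (2.66, adjusted p = 0.00171). Neither passed in the joint fit with the CDDO-Me libraries (adjusted p 0.0621 and 0.134), which spread widely in both genes. In CDDO-Me 1, 2 and 3 UQCRB stood at 8.56, 68.6 and 40.4 CPM and CCNH at 1.79, 25.9 and 16.3 CPM, by library totals. TPT1, which encodes a translationally controlled protein, ran from 52.4, 23.3 and 12.4 CPM with DMSO to 347, 333 and 88.7 CPM with PRL-295, so that both groups spread widely without overlap (3.13, SE 0.56, adjusted p = 0.0128; not without DMSO 2 (0.128)). EPGN, a ligand of the EGF receptor, rose by 2.83 (adjusted p = 0.0182), and was not called without DMSO 1 (0.0981), DMSO 3 (0.0512), PRL-295 1 (0.0733), or without PRL-295 3 (0.0912).

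The largest falls outside the lists were less stable. KLHDC7B, a kelch-repeat protein, fell from 3.93, 6.54 and 3.93 to 0.401, 1.19 and 1.35 CPM (-2.28, SE 0.44, adjusted p = 0.0184; not without DMSO 1 (0.0738) or DMSO 2 (0.114)). SPON2, a secreted matrix protein, fell by 1.65 (adjusted p = 0.0155; not without DMSO 1 (0.0865), PRL-295 1 (0.0521), or without PRL-295 3 (0.0617)). DSG4, a desmosomal cadherin of the hair follicle and upper epidermis, stood at 3.09, 1.51 and 4.06 CPM with DMSO and 0.802, 0.515 and 0.584 CPM with PRL-295 (-2.18, adjusted p = 0.0301; not without DMSO 1 (0.127), DMSO 3 (0.088), PRL-295 1 (0.0648), or without PRL-295 3 (0.123)). The transcription factor gene RUNX3 fell by 2.00 (adjusted p = 0.0419; not without DMSO 1 (0.209), DMSO 2 (0.0539), DMSO 3 (0.0643), PRL-295 1 (0.118), or without PRL-295 3 (0.143)) and the ankyrin gene ANK1 by 1.69 (adjusted p = 0.024; not without DMSO 1 (0.0879), DMSO 2 (0.12), PRL-295 1 (0.0501), or without PRL-295 3 (0.0766)).

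Interferon-stimulated genes, the antiviral genes switched on by type I interferon, held more falls than any other of the 43 lists. Of 44 tested, 18 fell (40.9%) and none rose, with a median of -0.61, beside 1.01% called lower among all tested genes. This list also has the most tested genes. The lists were chosen with earlier results of these data known, so its rank among them adds no support. MX2, a dynamin-like antiviral GTPase (ENSG00000183486; chromosome 21, 41361943 to 41409390), fell from 91.9, 97.3 and 104 to 40.9, 35.5 and 31 CPM (-1.45, SE 0.13, adjusted p = 0.000409), and its relative MX1 from 307, 365 and 349 to 169, 172 and 172 CPM (-0.99, SE 0.10, adjusted p = 0.000823). The DMSO and PRL-295 libraries of both genes were tight and far apart. Of the OAS family of antiviral proteins, OASL fell from 89.6, 113 and 85.9 to 40.6, 43.3 and 32.8 CPM (-1.31, adjusted p = 0.00171), OAS3 from 637, 663 and 567 to 372, 395 and 365 CPM (-0.72, adjusted p = 0.005), and OAS2 by 0.71 in log2 (adjusted p = 0.00515). ISG15, a ubiquitin-like modifier, fell from 271, 305 and 324 to 139, 180.3 and 133 CPM (-0.99, adjusted p = 0.00363), and IRF7, the transcription factor that amplifies the response, from 143, 161 and 138 to 78.1, 89.1 and 73.9 CPM (-0.88, adjusted p = 0.00347). These 7 genes kept their call with any library left out.

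Other members were called with less certainty or not at all. RSAD2 (viperin) fell by 1.01 (adjusted p = 0.00961; not without DMSO 2 (0.0728) or PRL-295 3 (0.0586)) and XAF1 by 1.44 (adjusted p = 0.0186; not without DMSO 1 (0.127), DMSO 2 (0.125), DMSO 3 (0.0528), or without PRL-295 3 (0.0904)). HERC5, the ligase for ISG15, fell from 4.29, 4.15 and 3.25 to 0.963, 1.39 and 1.17 CPM (-1.73, adjusted p = 0.017; not without DMSO 1 (0.0801), DMSO 2 (0.0772), PRL-295 1 (0.063), or without PRL-295 3 (0.0739)). The signal transducer STAT2 (-0.42, adjusted p = 0.0506) lay just outside the threshold with no overlap between the groups, and inside it with the GC and length correction (adjusted p = 0.04), while IRF1 (-0.13), DDX58 (-0.02) and IFITM3 (-0.13) overlapped. With DMSO 1, 2 and 3 and then PRL-295 1, 2 and 3 left out in turn, 12, 7, 18, 14, 24 and 8 members fell and none rose in any of these fits. With the GC and length correction 21 fell, with a median of -0.68, and in the joint fit with the CDDO-Me libraries 7 fell. Of the 13 immune markers 8 were at 0 in all 6 libraries, among them CD3E and NKG7.

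Of 31 tested genes of epidermal differentiation 6 fell, none rose and the median was -0.53. KRT1, the type II keratin of suprabasal cells (ENSG00000167768; chromosome 12, 52674736 to 52680407), had the largest fall of the named genes, from 100.1, 7.54 and 49.2 CPM with DMSO to 3.53, 1.5 and 1.9 CPM with PRL-295 (-4.50, SE 0.76, adjusted p = 0.00987). Its DMSO libraries spread widely among themselves, from 7.54 to 100.1 CPM, and the call ended without DMSO 1 (0.064) or PRL-295 3 (0.0645). The mucosal keratins KRT13, from 168, 56.7 and 119 to 34.1, 29.5 and 37.3 CPM (-1.77, adjusted p = 0.0113; not without DMSO 1 (0.0705) or PRL-295 3 (0.0513)), and KRT4, from 12.2, 4.45 and 6.09 to 1.69, 1.78 and 1.97 CPM (-2.06, adjusted p = 0.0141; not without DMSO 1 (0.063) or PRL-295 3 (0.0638)), showed the same uneven DMSO group, with library 2 lowest in all 3 genes. IVL, the involucrin of the cornified envelope, fell from 57.8, 30.6 and 36.3 to 15, 14.6 and 17.5 CPM (-1.41, adjusted p = 0.00845) and kept its call with any library left out. KRT10, the partner of KRT1, overlapped between the groups (-0.15, adjusted p = 0.801). TGM1, the cross-linking enzyme of the envelope (-1.02, adjusted p = 0.0538), and filaggrin FLG (-0.87, adjusted p = 0.233) did not overlap and did not pass. The number of members that fell was 1, 5, 7, 4, 8 and 1 with DMSO 1, 2 and 3 and PRL-295 1, 2 and 3 left out in turn, 4 with the GC and length correction and 3 in the joint fit with the CDDO-Me libraries. KRT14 and TRIM29 were the 2 of the 12 keratinocyte markers that fell (1 rose and 1 fell with the correction, and none was called in the joint fit); the part of the lower sum of these markers in the falls of this list was not tested.

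Among 17 basal genes 1 rose and 2 fell, with a median of -0.07 as counted and 0.15 with the GC and length correction. KRT15, a keratin of basal stem cell regions, fell from 429.8, 282 and 417 to 161, 193 and 181 CPM (-1.08, SE 0.16, adjusted p = 0.005) and held with any library left out. KRT14, the main basal type I keratin, changed by -0.48 on the log2 scale (adjusted p = 0.043), but not without DMSO 1 (0.153), DMSO 2 (0.125), PRL-295 1 (0.105), or without PRL-295 3 (0.14) and not with the GC and length correction (0.0817). Its partner KRT5 had -0.28 (adjusted p = 0.192). Integrin beta 1, ITGB1, rose from 321, 356 and 415 to 707, 612 and 635 CPM (0.84, adjusted p = 0.00496; not without DMSO 2 (0.0603)). None of the 5 stress keratins of wounded skin was called; KRT6A had -0.24 (95% interval -0.51 to 0.03) and KRT17 -0.03 (-0.29 to 0.24). With libraries left out in the same order 1, 0, 1, 1, 5 and 1 basal genes rose and 1, 1, 2, 1, 3 and 1 fell; with the correction 3 rose and 1 fell, and in the joint fit 0 rose and 1 fell. None of 18 desmosome and junction genes was called, with the plaque proteins DSP (-0.51, adjusted p = 0.0992) and JUP (-0.38, adjusted p = 0.0891) closest to it among the most abundant.

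**Figure D4:**
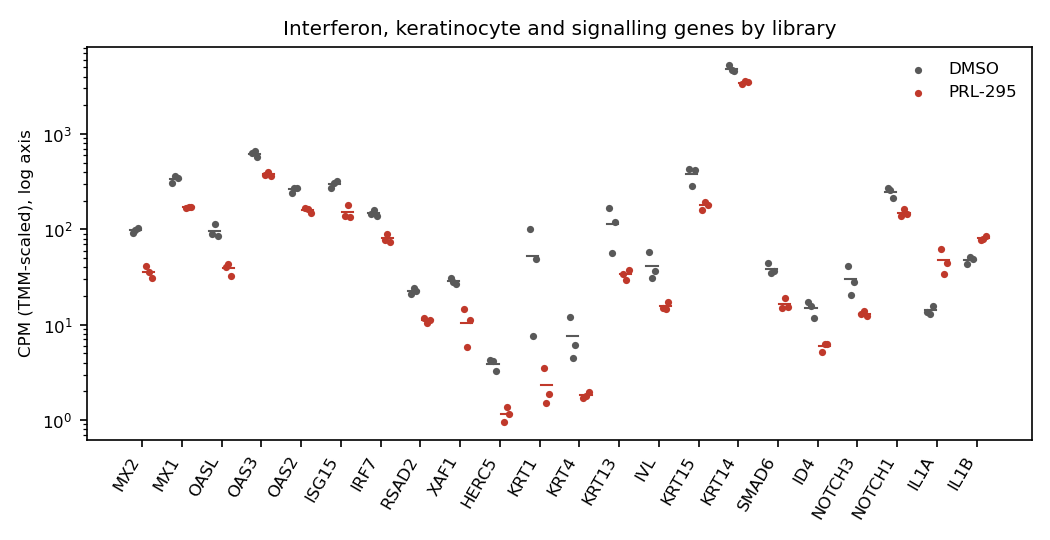
CPM (TMM-scaled, log axis) of interferon-stimulated, keratinocyte, BMP, Notch and interleukin 1 genes in each DMSO library (grey) and PRL-295 library (red), with group means as lines; levels are to be read within a gene only. Only called genes are drawn, so the groups do not overlap in any of them. IL1A and IL1B are higher in all 3 PRL-295 libraries and the other genes lower, with the widest DMSO spread in KRT1.

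Of 13 targets of bone morphogenetic protein (BMP) and TGF-beta signalling 4 fell, none rose and the median was -0.15. SMAD6, an inhibitor of the pathway that its own signal induces, fell from 44.3, 34.6 and 36.9 to 15, 19 and 15.4 CPM (-1.23, SE 0.17, adjusted p = 0.00403) and held with any library left out. The 3 others were members of the ID family, which block differentiation factors by binding them: ID4 fell from 17.2, 15.5 and 11.7 to 5.22, 6.3 and 6.24 CPM (-1.32, adjusted p = 0.00807; not without DMSO 1 (0.0576) or DMSO 2 (0.0622)), ID2 by 0.91 (adjusted p = 0.0158; not without DMSO 1 (0.0801), DMSO 2 (0.0627), PRL-295 1 (0.051), or without PRL-295 3 (0.0823)) and ID3 by 0.70 (adjusted p = 0.0412; not without DMSO 1 (0.151), DMSO 2 (0.0954), DMSO 3 (0.0644), PRL-295 1 (0.134), or without PRL-295 3 (0.148)). ID1 had -0.58 (adjusted p = 0.0571), and the TGF-beta target SMAD7 -0.15. The list count was 1, 1, 3, 2, 5 and 2 in the same order of libraries left out, and 2 in the joint fit.

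In the Notch list 3 of 11 fell and none rose, with a median of -0.42. NOTCH1, the receptor that starts keratinocyte differentiation, fell from 270.2, 258 and 213 to 136, 162 and 145 CPM (-0.74, adjusted p = 0.00905; not without DMSO 1 (0.0529) or DMSO 2 (0.0621)). NOTCH3 fell from 41, 20.6 and 27.9 to 12.8, 13.9 and 12.2 CPM (-1.20, adjusted p = 0.0201; not without DMSO 1 (0.0906), PRL-295 1 (0.0579), or without PRL-295 3 (0.0956)), and the ligand JAG2 by 0.55 (adjusted p = 0.021; not without DMSO 1 (0.0939), DMSO 2 (0.103), PRL-295 1 (0.0727), or without PRL-295 3 (0.0928)). None of the 3 passed with the GC and length correction (adjusted p 0.0612, 0.0674 and 0.177). With libraries left out in the order above, 0, 1, 3, 1, 6 and 1 members fell, and 0 in the joint fit. The target genes HES1 (-0.19) and HEY1 (-0.46) did not pass.

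IL1A and IL1B, the interleukin 1 cytokines that keratinocytes release on injury, were both higher. IL1A rose from 13.7, 12.8 and 15.8 to 62.9, 34.1 and 44.6 CPM (1.74, SE 0.22, adjusted p = 0.00274) and IL1B from 43.4, 51.1 and 49.4 to 77.5, 79.1 and 85.8 CPM (0.75, SE 0.12, adjusted p = 0.00767), and both held with any library left out. In the joint fit with the CDDO-Me libraries neither passed (adjusted p 0.0773 and 0.173). In the same list of 29 inflammatory genes the chemokine CCL2 fell from 19.5, 18.9 and 25.2 to 9.83, 9.23 and 7.96 CPM (-1.23, adjusted p = 0.00724; not without PRL-295 3 (0.05)), as did S100A9, a calgranulin subunit, by 0.84 (adjusted p = 0.0181; not without DMSO 1 (0.0947), DMSO 2 (0.0627), PRL-295 1 (0.065), or without PRL-295 3 (0.0739)). With libraries left out in the same order 2, 2, 2, 2, 3 and 2 members rose and 1, 1, 2, 1, 3 and 0 fell, and with the GC and length correction 2 rose and 4 fell. The median of the list was -0.02 as counted and -0.11 with the correction, and the receptor antagonist IL1RN (-0.02) and CXCL8 (0.67, adjusted p = 0.113) did not pass. None of 16 feedback genes of NF-kB was called as counted, with a median of -0.04, and 1 was higher with the correction, where the median was 0.10.

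Of 22 growth factor genes of the EGF receptor and related pathways 4 rose and none fell, with a median of 0.09. Besides EPGN they were HBEGF, from 32.9, 35.1 and 43.5 to 60.8, 74.3 and 68.2 CPM (0.87, adjusted p = 0.00977), amphiregulin AREG, from 6.34, 9.54 and 9.77 to 18.5, 16.1 and 16.1 CPM (0.98, adjusted p = 0.0288; not without DMSO 1 (0.115), DMSO 2 (0.113), PRL-295 1 (0.0895), or without PRL-295 3 (0.0956)), and TGFA (0.48, adjusted p = 0.0351; not without DMSO 1 (0.0674), DMSO 2 (0.149), PRL-295 1 (0.0557), or without PRL-295 3 (0.114)). AREG and TGFA were not called with the GC and length correction either (0.0715 and 0.21). All 4 are ligands of the EGF receptor. The HBEGF call ended without DMSO 1 (0.0568) or DMSO 2 (0.0743), and the list count was 0, 1, 3, 1, 5 and 1 with libraries left out in the same order, 2 with the correction and 1 in the joint fit. FOSL1, a subunit of the AP-1 transcription factor, rose from 259, 286 and 294 to 486, 569.8 and 495 CPM (0.89, SE 0.11, adjusted p = 0.00233) with any library left out, as 1 of 3 rises among 19 immediate early and AP-1 genes (median 0.14). The others were the phosphatase gene DUSP4 (0.54, adjusted p = 0.0285; not without DMSO 1 (0.0855), DMSO 2 (0.0966), or without PRL-295 3 (0.103)) and IER3 (0.53, adjusted p = 0.0464; not without DMSO 1 (0.144), DMSO 2 (0.161), PRL-295 1 (0.0505), or without PRL-295 3 (0.093)), and the list count was 1, 1, 4, 2, 3 and 1 with libraries left out in the same order and 1 in the joint fit.

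Of 27 genes of the wound edge and migration 4 rose and 2 fell, with a median of 0.06 as counted and -0.11 with the GC and length correction. The rises included the plasminogen activator PLAU, from 183, 196 and 263 to 316, 464 and 353 CPM (0.82, adjusted p = 0.0243; not without DMSO 1 (0.119), DMSO 2 (0.134), or without PRL-295 3 (0.0618)), and the serpin genes SERPINB2 and SERPINE2, whose products inhibit such activators. SERPINE2 rose from 69.4, 69.4 and 80.2 to 117, 139 and 123 CPM (0.79, adjusted p = 0.0057). It held with any library left out but not with the correction (0.0976). SERPINB2 (0.68, adjusted p = 0.0251) was not called without DMSO 1 (0.0883), DMSO 2 (0.113), or without PRL-295 3 (0.0914) nor with the correction (0.297). The falls were tenascin C, TNC, from 55.1, 68.9 and 54.4 to 29.6, 26.4 and 35.2 CPM (-0.97, adjusted p = 0.00804; not without DMSO 2 (0.0812)), and the collagenase MMP13 (-1.30, adjusted p = 0.0379; not without DMSO 1 (0.102), DMSO 2 (0.144), DMSO 3 (0.0595), PRL-295 1 (0.0707), or without PRL-295 3 (0.155)). Of the list, 1, 1, 5, 3, 4 and 1 rose with libraries left out in the same order, and 1, 0, 1, 1, 2 and 1 fell. With the correction 2 rose and 3 fell, and in the joint fit 2 rose and 1 fell. The integrins ITGA5 (0.09) and ITGA2 (-0.04) and fibronectin FN1 (-0.27, adjusted p = 0.26) did not pass.

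Of 35 proteasome genes 7 rose, none fell and the median was 0.37, against 4 rises and a median of 0.19 with the GC and length correction and 0 calls in the joint fit with the CDDO-Me libraries. POMP, the assembly chaperone of the core particle, rose from 27.5, 34.5 and 48.6 to 137, 139 and 102 CPM (1.77, adjusted p = 0.0017) and the ATPase subunit PSMC6 from 36.2, 40.2 and 49.5 to 111, 97.6 and 89.3 CPM (1.24, adjusted p = 0.00171), and both held with any library left out and with the correction, but not in the joint fit (0.0716 and 0.135). PSMA4 rose by 1.36 (adjusted p = 0.00498; not without DMSO 2 (0.0635)). The catalytic subunits PSMB5 (0.22), PSMB6 (0.04) and PSMB7 (0.28) did not pass. With libraries left out in the same order 3, 2, 9, 4, 10 and 5 proteasome genes rose. Of 18 heat shock genes 3 rose, led by HSP90AA1 (0.67, adjusted p = 0.0179; not without DMSO 1 (0.106), DMSO 2 (0.135), or without PRL-295 3 (0.0617)), against 1 with the correction and 0, 0, 5, 1, 6 and 0 with libraries left out. Of 22 genes of endoplasmic reticulum (ER) stress 4 rose, led by the disulfide isomerase PDIA3 (1.12, adjusted p = 0.0257; not without DMSO 1 (0.0911) or DMSO 2 (0.15) nor with the correction, 0.0591), against 1 with the correction and 0, 0, 5, 2, 5 and 1 with libraries left out. In the joint fit no gene of either list was called. The inducible markers HSPA1A (-0.04), HSPA5 (0.23) and DDIT3 (0.04) did not pass. The part of the GC trend in these rises was not tested beyond the correction.

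In the following lists of lipid, energy and growth pathways 0 to 5.56% of genes were called, and 16.7% in the fatty acid list. Of all tested genes 4.22% were called, so shares near it are no result about these pathways. SREBF1, the transcription factor of lipid synthesis, fell from 208, 186 and 171 to 99.1, 122 and 109 CPM (-0.77, adjusted p = 0.00713) with any library left out, and it was 1 of 2 fatty acid genes of 12 that fell. The other, the fatty acid synthase gene FASN (-0.49, adjusted p = 0.0482), was not called without DMSO 1 (0.186), DMSO 2 (0.168), PRL-295 1 (0.137), or without PRL-295 3 (0.161) nor with the correction (0.539). None of 24 cholesterol genes was called (median -0.20). Of 12 mitochondrially encoded genes none was called either, with a median of 0.27 as counted and -0.02 with the GC and length correction. STC2, a secreted glycoprotein, was the only gene called among 20 of the ATF4 and amino acid response, from 75.1, 75.3 and 85 to 125, 137 and 124 CPM (0.71, adjusted p = 0.00691). In the list of G1/S and replication RRM1 rose (0.65, adjusted p = 0.0202; not without DMSO 1 (0.0865) or DMSO 2 (0.097)), 1 of 26 tested. TTK was 1 of 25 in G2/M and mitosis (1.38, adjusted p = 0.0233; not without DMSO 1 (0.079), DMSO 2 (0.136), DMSO 3 (0.0643), PRL-295 1 (0.0727), or without PRL-295 3 (0.0739)), and WDR12 1 of 18 in ribosome biogenesis (0.72, adjusted p = 0.0275; not without DMSO 1 (0.128), DMSO 2 (0.135), PRL-295 1 (0.0549), or without PRL-295 3 (0.0831)). None of these 3 was called with the correction (adjusted p 0.128, 0.0552 and 0.205). Of 26 genes of glycolysis and hypoxia 1 rose, P4HA1 (0.76, adjusted p = 0.0297; not without DMSO 1 (0.113), DMSO 2 (0.146), PRL-295 1 (0.0983), or without PRL-295 3 (0.0822) nor with the correction, 0.16), and of 10 genes of lipid catabolism none was called. None of these 4 called genes passed in the joint fit.

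Among 17 autophagy genes SQSTM1 and MAP1LC3B (0.77, adjusted p = 0.0179; not without DMSO 1 (0.0838) or DMSO 2 (0.0972)) rose, 0, 0, 2, 2, 5 and 2 with libraries left out in the same order. Of 22 p53 targets TP53I3 (0.92, adjusted p = 0.0366; not without DMSO 1 (0.107), DMSO 2 (0.152), DMSO 3 (0.0582), PRL-295 1 (0.0571), or without PRL-295 3 (0.0866)) and PLK2 (0.73, adjusted p = 0.0207; not without DMSO 2 (0.0954) or PRL-295 3 (0.0699)) rose, 1, 0, 1, 1, 2 and 0 in that order. CDKN1A (0.05), the usual p53 readout, did not pass. NLRC5, an activator of MHC class I genes, was the 1 gene of 15 in that list to fall (-0.64, adjusted p = 0.0257; not without DMSO 1 (0.129), DMSO 2 (0.139), PRL-295 1 (0.0859), or without PRL-295 3 (0.0726) nor with the correction, 0.195). In the retinoid list STRA6, the receptor for retinol transport, fell as 1 of 14 (-1.16, adjusted p = 0.0266; not without DMSO 1 (0.132), DMSO 2 (0.112), PRL-295 1 (0.0615), or without PRL-295 3 (0.122) nor with the correction, 0.0782). KRT19 fell as 1 of 4 keratins of simple epithelia (-0.59, adjusted p = 0.0364; not without DMSO 1 (0.144), DMSO 2 (0.0953), PRL-295 1 (0.126), or without PRL-295 3 (0.136)). In the joint fit no gene of the autophagy, p53, MHC class I, retinoid and simple keratin lists was called. As counted, 11.8, 9.09, 6.67, 7.14 and 25% of these lists were called, beside 4.22% of all tested genes. These shares are 1 or 2 genes in each list, too few to be a result about these pathways. No metallothionein of 7 was called, MT2A having 0.20 (95% interval -0.23 to 0.64). By gene class, 473 of 12709 protein coding genes were higher and 155 lower (4.94% called). Of 639 long intergenic noncoding RNAs 9 were higher and 1 lower (1.56%), beside 4.22% of all tested genes. The classes were not matched for level, which bears on what the test can call, so their shares were not compared.

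**Figure D5:**
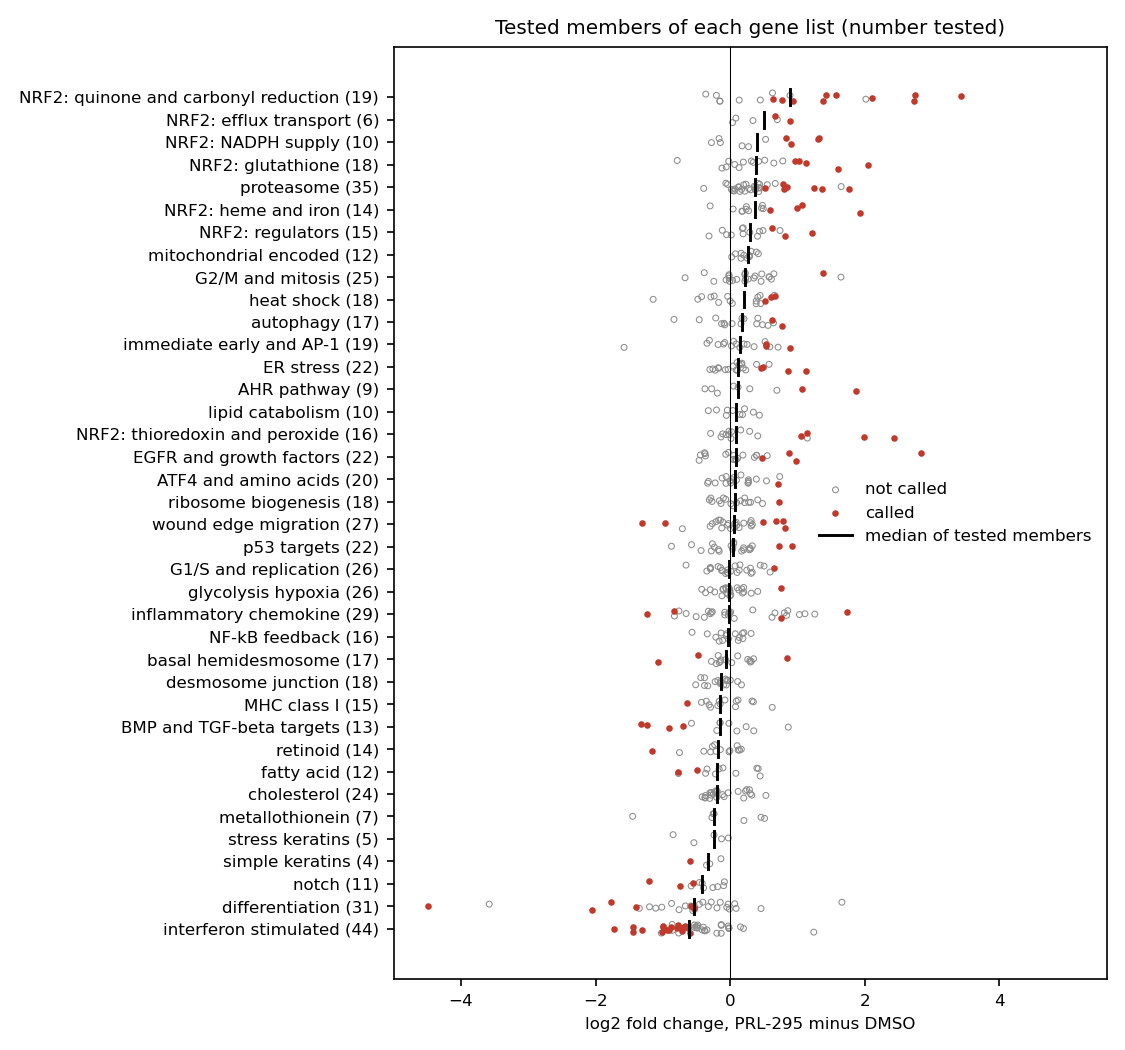
Log2 fold change (PRL-295 minus DMSO) of each tested member of 38 gene lists, with called genes in red, others as open circles and the list median as a black bar; the number tested is in brackets. The NRF2 list of quinone and carbonyl reduction has the highest median (0.89) and the interferon-stimulated list the lowest (-0.61).

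A last comparison asked whether genes named for PRL-295 stood at another level with CDDO-Me. The doses differ, 10 µM against 250 nM at the same 14 h, so a difference is one between these 2 treatments. In a fit of all 9 libraries 258 of 16239 genes (1.59%) differed, 147 higher and 111 lower with PRL-295, and among them were 37 of the 650 genes called against DMSO, 15 higher and 22 lower with PRL-295. Without PRL-295 1, 2 and 3 and then CDDO-Me 1, 2 and 3 the counts were 75, 65, 43, 167, 98 and 61 higher and 50, 45, 17, 118, 104 and 45 lower. These contrasts share the PRL-295 libraries. CDDO-Me levels are CPM by library totals, beside the PRL-295 mean on the same scale, and differences are log2, PRL-295 minus CDDO-Me, with their 95% interval.

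For TXNRD1, GCLC and NQO1 no difference passed the test. TXNRD1 stood at 594 CPM with PRL-295 and at 603, 746 and 659 CPM with CDDO-Me (difference -0.14, -0.37 to 0.09, adjusted p = 0.534), GCLC differed by -0.30 (-0.61 to 0.00, adjusted p = 0.292) and NQO1 by 0.56 (0.18 to 0.94, adjusted p = 0.137). AKR1C1 was lower with PRL-295, at 403 against 638, 949 and 835 CPM (-0.97, -1.29 to -0.65, adjusted p = 0.00777, at most 0.0761 with a library left out). HMOX1 was lower by a wide margin, at 41.5 against 364, 375 and 355 CPM (-3.10, -3.46 to -2.75, adjusted p = 1.16e-05). CYP1A1 was higher with PRL-295, at 49.4 against 3.89, 4.46 and 5.73 CPM (3.43, 2.95 to 3.92, adjusted p = 6.12e-05), whereas TIPARP, the other AHR gene called, differed by -0.06 (-0.35 to 0.24, adjusted p = 0.875).

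Among the epidermal and cytokine genes, IL1B was higher with PRL-295, at 79.6 against 13.8, 25.1 and 27.6 CPM (1.88, 1.39 to 2.37, adjusted p = 0.00261), and so was CCL2, at 8.88 against 1.19, 1.2 and 1.41 CPM (2.84, 2.34 to 3.34, adjusted p = 0.000168), although PRL-295 lowered it against DMSO. IL1A differed by 0.41 with a wide interval (-0.40 to 1.22). KRT15 was higher with PRL-295 (1.88, 1.54 to 2.22, adjusted p = 0.000172) and KRT19 likewise (1.01, 0.70 to 1.33, adjusted p = 0.00676), while KRT14 was lower (-0.80, -1.02 to -0.58, adjusted p = 0.00352). FOSL1 was higher with PRL-295 (0.71, 0.49 to 0.93, adjusted p = 0.00694). SERPINE2 was lower (-1.02, -1.35 to -0.70, adjusted p = 0.0074, at most 0.0718 with a library left out), as was TNC (-1.05, -1.44 to -0.65, adjusted p = 0.0172, at most 0.0741). KRT1 was lower as well, at 2.31 against 126, 61.8 and 42.9 CPM (-5.05, -6.89 to -3.20, adjusted p = 0.0137, at most 0.0718). The interferon-stimulated gene MX2 did not pass (difference 0.11, -0.37 to 0.60, adjusted p = 0.842).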

How the data were processed

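The labels' protocols state RNA extraction with a Qiagen RNeasy Plus Mini kit and paired-end sequencing by a commercial provider. Reads were aligned with STAR 2.5 to hg38 and counted per gene with HTSeq 0.6.1, per the submitters' processing notes and the labels; the annotation release and the strand setting are not given in the sources used here. The deposited table holds whole-number counts and FPKM for 58676 genes in 9 libraries. FPKM was made by the authors from count, gene length and library total: 100% of 528084 deposited FPKM values equalled the recomputed value within 0.1%.

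The comparison used the deposited counts of 6 libraries in edgeR 4.0.16 (R 4.3.3): genes with low counts were removed (filterByExpr, minimum count 10, minimum total 15), libraries were scaled by TMM, and a quasi-likelihood fit was tested with Benjamini-Hochberg adjustment at 0.05 over 15386 genes. SE is the log2 fold change over the root of F, and intervals are 95%. A floor of 3 counts covers counting error only. Replicates differed by more than counting noise in every pair (chi-square per degree of freedom 11.3 to 46.6), so none was a copy of another. The GC and length correction fitted a spline with 5 degrees of freedom to each library, with GC content from GENCODE transcripts of the same gene identifiers. PRL-295 and CDDO-Me were compared in a fit of all 9 libraries. Alternatives were DESeq2 1.42.0, other scalings and filters, limma 3.58.1 on log2(FPKM + 1) and log2(FPKM + 0.1), a fold threshold of 1.5, sample number as a block, and each library left out.

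In counts simulated for this comparison, 50 genes were changed at each fold. Of 1.5-fold changes 26% were recovered, of 2-fold 50%, of 4-fold 86% and of 8-fold 96%. There were 10 false calls among the unchanged genes of the 15386 in the fit. The simulated libraries had no trend with GC content or gene length, unlike the real ones. The number of false calls in the real data therefore cannot be read from this simulation.

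The 43 lists hold 784 symbols, all matched, for 782 genes, of which 693 were tested. The genes and lists were chosen with earlier results of these data known. Genes were named by rule: the 12 largest rises and falls of at least 1 CPM without overlap, up to 5 called members per list (8 for NRF2 lists), 5 each way among noncoding genes, and 15 fixed genes. Other members and genes were named after their values were seen, and a few list members are not reported here. Promoter windows are RefSeq's. Their last 40 bases were found in a transcript of the gene for 337 of 384 windows of genes called higher.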

Additional observations from a re-analysis of the deposited data

How the results depend on the processing

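Against 494 genes higher and 156 lower, adding the CDDO-Me libraries gave 75 and 36, DESeq2 962 and 444, no filter 1141 and 357, limma on log2(FPKM + 1) 289 and on log2(FPKM + 0.1) 287 higher, a fold threshold of 1.5 gave 45 and 3, library totals 434 and 248, and the GC and length correction 231 and 120. With each library left out the count ran from 91 to 1192 higher and from 28 to 410 lower. Against 147 higher and 111 lower between PRL-295 and CDDO-Me, their 6 libraries alone gave 27 and 18, DESeq2 579 and 475, and single libraries left out 43 to 167 and 17 to 118. The cause of these moves was not tested. Fits that leave libraries out hold fewer samples, and against DMSO they gave more calls without DMSO 3 or PRL-295 2 and fewer without any other library.

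With the sample number as a replicate block, 344 genes were higher and 99 lower against DMSO, 295 higher with the block and the GC and length correction, and 95 and 61 between the compounds. The labels do not say if samples of the same number belong together. Deviations of same-numbered libraries had correlations of 0.0588, 0.0325 and -0.0382 across genes, and those of different numbers -0.0889 to 0.0633. With 3 libraries per group, whose trends with GC content differ, these values cannot tell if the samples were paired.

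With the GC and length correction, and again with block and correction, 8 list medians changed sign: the wound edge list (-0.11 and -0.11), the mitochondrially encoded genes (-0.0214 and -0.00899), the ER stress list (-0.00514 and -0.00253), the basal list (0.15 and 0.15), the NF-kB list (0.10 and 0.10), the p53 list (-0.03 and -0.09), the glycolysis list (0.07 and 0.07) and the G1/S list (0.03 and 0.03). With DMSO 1 left out the median of the AHR list was -0.0149, in a range up to 0.187, and with DMSO 3 left out that of the MHC class I list was 0.0068. Medians near 0 of the inflammatory, NF-kB, basal, glycolysis, p53 and G1/S lists changed sign under other alternatives as well. Of 141 named genes 113 were called, 39 of them with every library left out and 21 under every alternative, and none changed sign while called. Changes under 2-fold are poorly covered at this depth and spread.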

Other observations

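Among genes called with each of the 6 libraries left out in turn, a further set lay outside the lists and was chosen after its values were seen. CYP4F11 and CYP4F3, fatty acid hydroxylases that sit near each other on chromosome 19, rose from 13.3, 15.8 and 12.1 to 69.1, 65 and 79.5 CPM (log2 fold change 2.37, SE 0.16, adjusted p = 4.29e-05) and from 9.47, 4.87 and 6.28 to 21.9, 20.6 and 23.2 CPM (1.68, SE 0.24, adjusted p = 0.00497). MAP2, a microtubule-associated protein best known from neurons, rose from 4.41, 4.63 and 3.65 to 19.4, 15 and 20.5 CPM (2.11, adjusted p = 0.000695). The acyltransferase GPAT3 rose from 10.5, 11.3 and 8.46 to 29.5, 38.7 and 29.4 CPM (1.69, adjusted p = 0.00157). CSTA, a protease inhibitor of the cornified envelope, rose from 10.7, 7.66 and 17.9 to 55.9, 65.7 and 40.0 CPM (2.15, adjusted p = 0.0037), whereas IVL of the same structure fell by 1.41 on the log2 scale. PTHLH, a secreted hormone of keratinocytes, rose from 133, 137 and 147 to 218, 226 and 234 CPM (0.70, adjusted p = 0.00472).

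Falls of the same standing were the small GTPase gene RHOV, from 65.2, 59.3 and 60.8 to 27.2, 32.6 and 29.2 CPM (-1.06, adjusted p = 0.00221), SLC15A3, a lysosomal peptide transporter, from 28.5, 34.2 and 32.5 to 12.6, 15.4 and 12.7 CPM (-1.23, adjusted p = 0.00382), and APCDD1, an inhibitor of Wnt signalling, from 17.4, 15.3 and 16.3 to 5.5, 7.29 and 5.95 CPM (-1.39, adjusted p = 0.00433). In these genes, as in all 650 called genes, the 3 PRL-295 libraries lay outside the DMSO range, so this adds no support. It was so for 26.2% of all tested genes.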
